A study of Mus musculus with 21 samples.

Results

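The genes described here encode the respiratory chain and the ATP synthase of mitochondria, measured in CD4+ and CD8+ T cells from the spleens of mice. They were chosen by name alone, as the genes of the spleen table whose symbols start with Ndufa, Ndufb, Ndufc, Ndufs or Ndufv, with Uqcr, with Cox4 to Cox8 or with Atp5, the 4 genes Sdha to Sdhd, and the protein-coding genes of the mitochondrial chromosome. This rule found 94 of the 12994 genes listed. Of these, 36 encode subunits of complex I, 4 of complex II, 8 of complex III, 12 of complex IV and 15 of the ATP synthase, and 9 are encoded by mitochondrial DNA. The remaining genes are 9 assembly factors and related genes (Ndufaf1 to Ndufaf7, Atp5s and Atp5sl) and 1 pseudogene, Atp5l2-ps. Ndufa4 and Cox7a2l were placed with complex IV. Cox4i2, Cox6a2, Cox7a1, Atpif1, mt-Co2, mt-Co3, mt-Atp6 and mt-Atp8 were not analysed here.

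The study compared female C57BL6/J mice that were kept from 4 weeks of age, for 4 weeks, either in an enriched environment (EE), large cages with many companions, wheels, toys and tunnels, or in a standard environment (SE), smaller cages without objects. T cells were sorted from the spleen by surface markers (CD45+ CD11b- CD3+, then CD4+, labelled LT4, or CD8+, labelled LT8), and 6 EE and 5 SE mice gave CD4+ samples while 6 EE and 4 SE mice gave CD8+ samples. Both populations were available for 9 of the 12 mice, and each sample of a group came from a different mouse. Per the labels the mice of an environment came out of a common cage, and an effect of the cage and one of the housing cannot be told apart in these groups.

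In oxidative phosphorylation, complex I and complex II pass electrons from NADH and succinate to ubiquinone, complex III passes them on to cytochrome c, and complex IV hands them to oxygen. Complexes I, III and IV pump protons, and the ATP synthase uses the proton gradient to make ATP. All complexes except complex II combine subunits made in the cytosol from nuclear genes with a few core subunits made inside the organelle from mitochondrial DNA. Resting T cells rely largely on this pathway, whereas activated T cells add glycolysis to it.

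Values are normalized molecule counts. Every cDNA carried a random tag, so that each captured molecule was counted once whatever the length of its gene, and counts were divided by a size factor of the sample. Samples held 145546 to 221454 molecules (median 182470), with medians of 164056.5 and 176086 in CD4+ EE and SE and 191906.5 and 194488 in CD8+ EE and SE. The sorted cells carried the markers of their labels: summed Cd4 and Zbtb7b were 55.6 to 103 in CD4+ samples and at most 1.86 in CD8+ samples, and summed Cd8a and Cd8b1 were 275 to 337 in CD8+ samples and at most 9.15 in CD4+ samples. Among markers of other cells, hemoglobin genes and Alas2 summed to 580.5 in the CD8+ sample of mouse EE 6 and 1033 in that of mouse SE 3, and to at most 26.7 elsewhere. Genes of B cells summed to 41.2 to 499 in CD4+ samples and to at most 116 in CD8+ samples. A list of memory or activation genes had median sums of 293 and 134 in CD4+ EE and SE. In CD8+ EE and SE they were 216 and 129, with overlapping sums (111 to 269 and 89.4 to 211). In CD4+ cells only Cd44 of this list had a lower mean in EE (7.61 against 9.21). In CD8+ cells Cd44 (2.09 against 2.43) and S100a6 (2.60 against 5.61) were lower in EE, and Ccl5 had the largest gap (84.2 against 33.2). The part of red cells, B cells and memory or activated cells in the results below was not tested beyond leaving out the red-cell-rich samples. In such bulk samples fewer cells of a type and less RNA per cell cannot be told apart.

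The 94 genes together took 2.84% to 3.22% of the molecules of a sample. Within them, mitochondrial DNA supplied 30.8% ± 2.21 (SD, n = 21), complex I 20.7% ± 1.24, the ATP synthase 20.4% ± 0.971, complex IV 18.8% ± 0.834, complex III 6.96% ± 0.443 and complex II 1.49% ± 0.193. The mitochondrial genes mt-Co2, mt-Co3, mt-Atp6 and mt-Atp8 are not part of these shares. mt-Co1 alone, the catalytic subunit of complex IV, made up 11.7% ± 0.801 of the total. A molecule was found in every sample for 84 of the 94 genes. The median gene had a mean of 33.8, and 82 genes had a mean above 10.

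**Figure D1:**
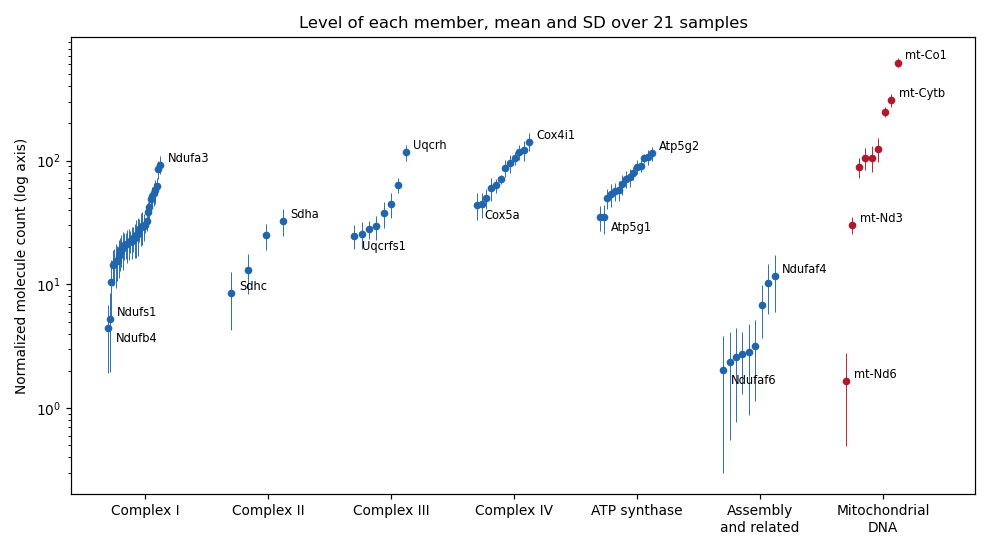
Each point is the mean normalized molecule count of 1 gene over 21 samples on a log axis, with its SD as a bar, grouped by complex and ordered by level (blue, nuclear genes; red, mitochondrial DNA). Complex IV and the ATP synthase lie in a narrow band from 34.8 to 142, complex I reaches down to 4.41, and the mitochondrial-encoded genes run from 1.65 for mt-Nd6 to 620.0 for mt-Co1.

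The mitochondrial-encoded genes covered the widest range, although the heavy-strand genes are cut from shared precursor transcripts. mt-Co1 (ENSMUSG00000064351, mitochondrial chromosome 5328 to 6872, plus strand, GRCm38) had 620.0 ± 54.7 molecules (mean ± SD, n = 21). It was followed by mt-Cytb, the only mitochondrial-encoded subunit of complex III, at 309 ± 36.7, and by the complex I subunits mt-Nd1 at 248 ± 20.9, mt-Nd4l at 125 ± 26.8, mt-Nd5 at 106 ± 24.9, mt-Nd4 at 105 ± 21.2, mt-Nd2 at 89.1 ± 16.4 and mt-Nd3 at 30.3 ± 4.88. mt-Co1 was above mt-Cytb in 21 of 21 samples, and mt-Cytb above mt-Nd1 in 19. The neighbours mt-Nd5 and mt-Nd4 could not be ordered, with mt-Nd5 higher in 9 of 21 samples. mt-Nd4l exceeded mt-Nd5 in 16 samples and mt-Nd4 exceeded mt-Nd2 in 17, differences that were within the spread between samples.

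mt-Nd6 (ENSMUSG00000064368, 13552 to 14070, minus strand) is the one protein-coding gene of the light strand. It had 1.65 ± 1.15 molecules, was found in 17 of 21 samples, and never exceeded 4 recovered molecules, which is close to the floor of 3 molecules taken here as low. The next gene up, mt-Nd3, was 18.4-fold higher. In CD4+ SE mt-Nd6 read 2.06, 2.75, 1.83, 3.80 and 3.38, against 1.26, 2.15, 0, 2.23, 1.83 and 0 in CD4+ EE. At 0 to 4 molecules per sample no difference was detectable, and the gene was below the limit for testing in every main comparison. With no filter on means it was tested, and 0 members were called in any comparison.

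Some of these counts could be shared with nuclear copies of mitochondrial DNA. Of the 50-base stretches of the annotated transcript, 98.8% were also found in another annotated gene for mt-Nd4l, 98.0% for mt-Nd3, 62.2% for mt-Nd4 and 51.1% for mt-Co1, but 0% for mt-Cytb, mt-Nd1 and mt-Nd6. Whether such sharing raised or lowered the counts given above was not tested. mt-Nd4l and mt-Nd4 also overlap on the chromosome (9877 to 10173 and 10167 to 11544), as do mt-Nd5 and mt-Nd6. Over all members, 5 shared more than 50% of such stretches with another annotated entry, the other one being the pseudogene Atp5l2-ps, and 18 shared more than 10%, while 42 shared none.

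Of the complex I subunits that carry its redox chemistry, those named here lay below or close to the median of 23.6 for the complex. Ndufs1, the largest iron-sulfur subunit, had a mean of 5.21 ± 3.26 (SD, n = 21), and Ndufv1, which binds NADH and its flavin, had 10.5 ± 5.33. The core subunits Ndufs7 and Ndufs8, which carry iron-sulfur clusters, had 25.7 ± 8.79 and 23.6 ± 7.24. The accessory subunits Ndufa3 (92.8 ± 15.4) and Ndufa6 (85.7 ± 14.5) were highest, and Ndufab1, the mitochondrial acyl carrier protein, had 17.1 ± 5.81. Ndufb4, the lowest of the 36, had 4.41 ± 2.47.

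In complex II, which is also the succinate dehydrogenase of the citric acid cycle, the flavoprotein Sdha (mean 32.7, from 17.8 to 44.7) and the iron-sulfur subunit Sdhb (24.9 ± 5.88) lay above the membrane anchors Sdhd (13.0 ± 4.65) and Sdhc (8.46 ± 4.16). In complex III, the hinge protein Uqcrh (117 ± 17.2) and Uqcrq (63.3 ± 8.62) were highest. The core proteins Uqcrc1 (29.4 ± 6.42) and Uqcrc2 (27.8 ± 4.69) and the Rieske iron-sulfur protein Uqcrfs1 (24.6 ± 5.45) were close to each other, at differences smaller than their SDs.

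All 12 complex IV genes had means of 43.9 or more. Cox4i1 (ENSMUSG00000031818, chromosome 8, 120668222 to 120674207, plus strand), the largest nuclear-encoded subunit of the enzyme, had 142 ± 23.4, followed by the small membrane subunit Cox8a at 122 ± 21.6 and by Cox7a2l at 118 ± 17.1. Cox6a1 had 105 ± 12.8, Ndufa4 a mean of 63.0 (49.4 to 83.6), Cox5b 59.6 ± 12.2, Cox7a2 49.8 ± 9.38 and Cox5a 43.9 ± 10.7. In these counts every nuclear complex IV gene stood well below mt-Co1.

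In the ATP synthase, the catalytic head contains alpha (Atp5a1, 105 ± 8.60) and beta (Atp5b, 73.3 ± 12.6) subunits around the shaft formed by gamma (Atp5c1, 56.3 ± 9.20), delta (Atp5d, 79.8 ± 9.50) and epsilon (Atp5e, 107 ± 14.3). Subunit c, which forms the rotating ring in the membrane, is made from 3 genes that encode the same mature peptide behind different import sequences. Atp5g2 supplied 114 ± 15.3 molecules, Atp5g3 91.2 ± 10.4 and Atp5g1 34.9 ± 9.17. The order Atp5g1 below both others held in every sample, where Atp5g1 made up 9.19% to 20.2% of the 3 genes together. Of the 50-base stretches of Atp5g2, 38.3% were shared with another annotated gene, against 10.2% for Atp5g1 and 0% for Atp5g3.

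The 250 bases before the RefSeq start site of each subunit c gene (GRCm38.p6, given 5′ to 3′ on the gene's strand) are shown because the 3 genes make the same peptide at different levels. Capitals mark letters of 5 motifs searched on both strands: CGCANGCG (the NRF1 core), CCGGAAG (the ETS core bound by GABPA), AAGATGGC (YY1), AAGGTCA (the ERR half-site) and CACGTG (the E-box).
Atp5g1, chr11:96075632-96075881, minus strand: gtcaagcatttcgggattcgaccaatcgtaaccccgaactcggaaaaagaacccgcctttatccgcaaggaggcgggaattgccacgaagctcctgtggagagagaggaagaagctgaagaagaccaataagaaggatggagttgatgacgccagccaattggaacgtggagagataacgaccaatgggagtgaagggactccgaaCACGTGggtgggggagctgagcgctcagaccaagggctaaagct
Atp5g2, chr15:102671048-102671297, minus strand: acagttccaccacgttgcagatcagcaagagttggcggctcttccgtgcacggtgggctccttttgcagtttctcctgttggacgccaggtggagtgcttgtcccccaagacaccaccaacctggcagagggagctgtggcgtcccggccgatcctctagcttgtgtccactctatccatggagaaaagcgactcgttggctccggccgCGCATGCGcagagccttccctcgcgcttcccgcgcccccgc
Atp5g3, chr2:73911327-73911576, minus strand: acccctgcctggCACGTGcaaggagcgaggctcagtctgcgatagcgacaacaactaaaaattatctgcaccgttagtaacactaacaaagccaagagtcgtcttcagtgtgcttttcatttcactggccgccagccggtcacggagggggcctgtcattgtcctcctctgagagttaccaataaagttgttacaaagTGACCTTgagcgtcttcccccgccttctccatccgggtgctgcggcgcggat
Atp5g2 had the NRF1 letters 41 bases before the start site, Atp5g1 an E-box at 44 bases, and Atp5g3 an E-box at 238 bases and the ERR letters, on the opposite strand, at 52 bases. In the longer window described next, which adds 50 bases after the start, Atp5g3 also held the NRF1 letters.

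A window from 250 bases before to 50 bases after the start was listed for 69 of the 94 members. The NRF1 letters were in 40.6% of these 69 genes, against 22.9% of the 5635 tested genes with a window and 9.22% of all 27025 genes listed. For the ETS letters the shares were 24.6%, 25.6% and 9.93%, for YY1 13.0%, 6.78% and 3.19%, for the ERR half-site 11.6%, 3.64% and 5.38%, and for the E-box 7.25%, 12.8% and 8.09%. NRF1 and GABPA, also called nuclear respiratory factors, and the ERR proteins are known regulators of genes of this pathway. The shares describe letters in a window and were not tested.

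Across the 4 groups the summed level of each complex moved little. The 75 nuclear-encoded subunits summed to 3682 ± 161 in CD4+ EE (n = 6), 3542 ± 219 in CD4+ SE (n = 5), 3672 ± 172 in CD8+ EE (n = 6) and 3579 ± 131 in CD8+ SE (n = 4). The mitochondrial-encoded genes summed to 1622 ± 137, 1663 ± 175, 1643 ± 77.6 and 1598 ± 240.3 in the same order. The ratio of nuclear to mitochondrial-encoded counts was 2.28 ± 0.205, 2.15 ± 0.244, 2.24 ± 0.191 and 2.27 ± 0.326, with overlapping ranges in all 4 groups. The mitochondrial-encoded counts leave out mt-Co2, mt-Co3, mt-Atp6 and mt-Atp8, so the ratio describes only the genes analysed. Complex I summed to 1097 ± 59.4, 1096 ± 85.9, 1100.1 ± 74.7 and 1084 ± 64.1, a difference between groups smaller than the spread within any of them.

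**Figure D2:**
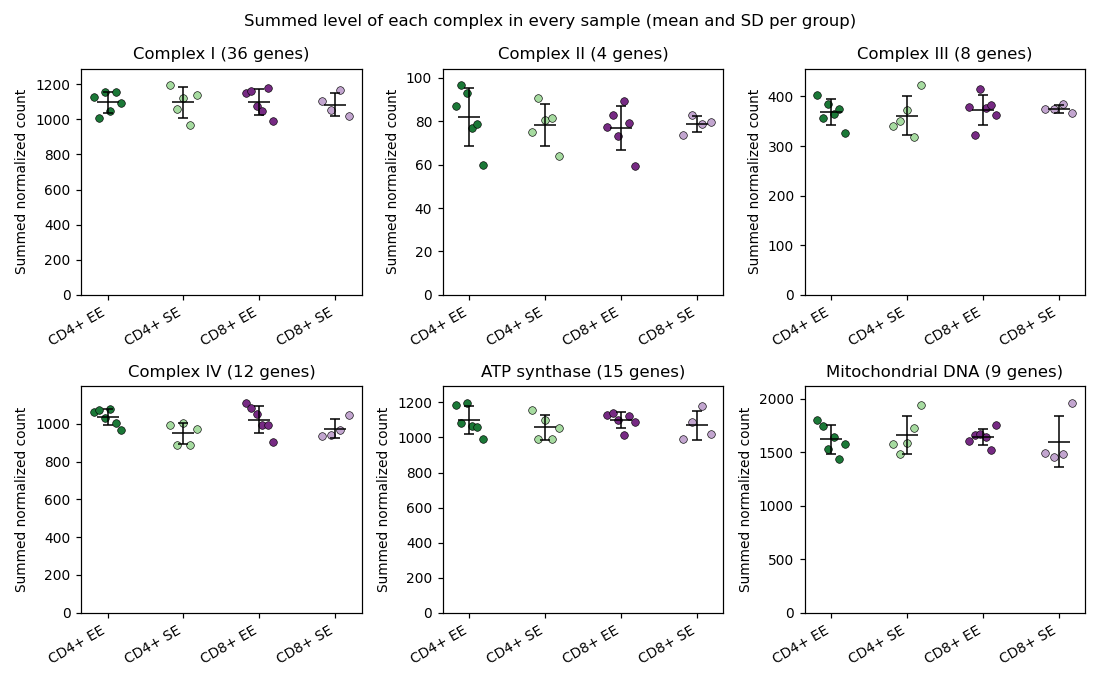
Each panel shows the summed normalized molecule count of 1 complex, or of the mitochondrial-encoded genes, in every sample (points), with the mean and SD of each group (black). The groups overlap in all 6 panels; complex IV in CD4+ cells lies at 969 to 1079 in EE and 888 to 1005 in SE, and 1 CD8+ SE sample stands at 1958 in the mitochondrial panel.

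Complex IV showed the widest gap between the environments relative to its spread. Its 12 genes summed to 1060.3, 1074, 1031, 1079, 1005 and 969 in CD4+ EE and to 991, 889, 1005, 888 and 972 in CD4+ SE. A pair of SE samples lay below all others and 5 EE samples above every SE sample, the fifth by a margin within the rounding, while 1 EE sample lay inside the SE range. As a percentage of all molecules of the sample, complex IV took 0.576% to 0.625% in CD4+ EE and 0.531% to 0.576% in CD4+ SE, where the lowest EE sample was above the highest SE sample by less than the rounding, and 0.526% to 0.620% and 0.530% to 0.608% in CD8+ EE and SE, which overlapped. The difference of the means was 87.5, and it was 72.3 to 101 when any 1 sample was left out. In CD8+ cells the sums were 1109, 1081, 1051, 994, 996 and 904 in EE and 936, 943, 966 and 1047 in SE, a difference of 49.4 that lay between 32.2 and 74.0 with 1 sample left out. The smallest CD8+ EE value came from mouse EE 6, one of the red-cell-rich samples. The sums were not tested.

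The other complexes gave smaller gaps. The ATP synthase summed to 1098 ± 78.8 and 1058 ± 72.6 in CD4+ EE and SE and to 1099 ± 45.0 and 1068 ± 83.3 in CD8+ EE and SE. Complex III gave 368 ± 26.0, 361 ± 39.5, 373 ± 30.5 and 375 ± 7.35 in that order. Complex II ran from 59.9 to 96.5 in CD4+ EE and had 78.4 ± 9.70 in CD4+ SE, 76.9 ± 10.2 in CD8+ EE and 78.7 ± 3.83 in CD8+ SE. The differences between EE and SE in these 3 complexes were smaller than the SDs of both groups compared.

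Whether housing changed single genes was tested gene by gene with limma on log2(normalized count + 1), a scale that understates the changes of low genes, with Benjamini-Hochberg adjustment over all genes tested. In CD4+ cells 0 of 91 members tested passed an adjusted p of 0.05, where 0.0126% of all 7939 genes tested did. An unadjusted p under 0.05 was reached by 5 members, against 5.82% of all genes. A difference above 0 was found for 53 of 91 members (median 0.04), against 50.1% of all genes (median 0.00), and without the SE sample of mouse 5 the count was 44 of 91 and the median -0.02. With a mean above 10 the difference was above 0 for 59.8% of members and 53.4% of all genes. The 95% interval of the difference lay within 1.5-fold either way for 50 of the 91 members and within 2-fold for 77, so changes beyond those limits were outside the interval for these genes only. Among genes with a mean above 10 these shares were 61.0% and 92.7% of members, against 31.0% and 85.6% of all genes.

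In CD8+ cells 0 of 92 members tested passed that threshold, where 0% of all 7840 genes did. An unadjusted p under 0.05 was reached by 5 members, against 5.27% of all genes. A difference above 0 was found for 50 members (median 0.02), against 49.0% of all genes (median -0.01), and for 45 and 46 of 92, with medians of -0.0041 and -0.0026, without the sample of mouse EE 1 or EE 3. With a mean above 10 the difference was above 0 for 58.5% of members and 52.9% of all genes. The interval lay within 1.5-fold for 53 members and within 2-fold for 82, and with a mean above 10 these shares were 64.6% and 97.6% of members, against 36.6% and 89.1% of all genes. edgeR and DESeq2 on the recovered molecules also called 0 members in either population, with 4 members each at an unadjusted p under 0.05 in CD4+ cells, against 417 (edgeR) and 308 (DESeq2) of all 7939 genes, and 3 each in CD8+ cells, against 380 and 237 of all 7840 genes.

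By complex, 9 of 12 complex IV genes had a difference above 0 in CD4+ cells (median 0.16) and 9 of 12 in CD8+ cells (median 0.07), and with 1 sample left out the counts were 9 to 10 and 7 to 9 and the medians 0.10 to 0.19 and 0.01 to 0.13, the lowest CD8+ median being that without mouse SE 3. Without the red-cell-rich samples the CD8+ count was 8 of 12 (median 0.04). For the ATP synthase the counts were 10 of 15 in both populations (medians 0.04 and 0.03), for complex III 5 and 4 of 8, for complex II 3 and 2 of 4, and for complex I 20 and 19 of 36. The mitochondrial-encoded genes had 2 of 8 above 0 in CD4+ cells (median -0.09) and 4 of 8 in CD8+ cells (median 0.06). With 1 sample left out the medians ran from -0.18 to -0.03 and from 0.01 to 0.15, and without the sample of mouse SE 6 the counts were 3 and 7 of 8. The interval of the difference stayed within 1.5-fold for 11 of the 12 complex IV genes in CD4+ cells and 12 of 12 in CD8+ cells.

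**Figure D3:**
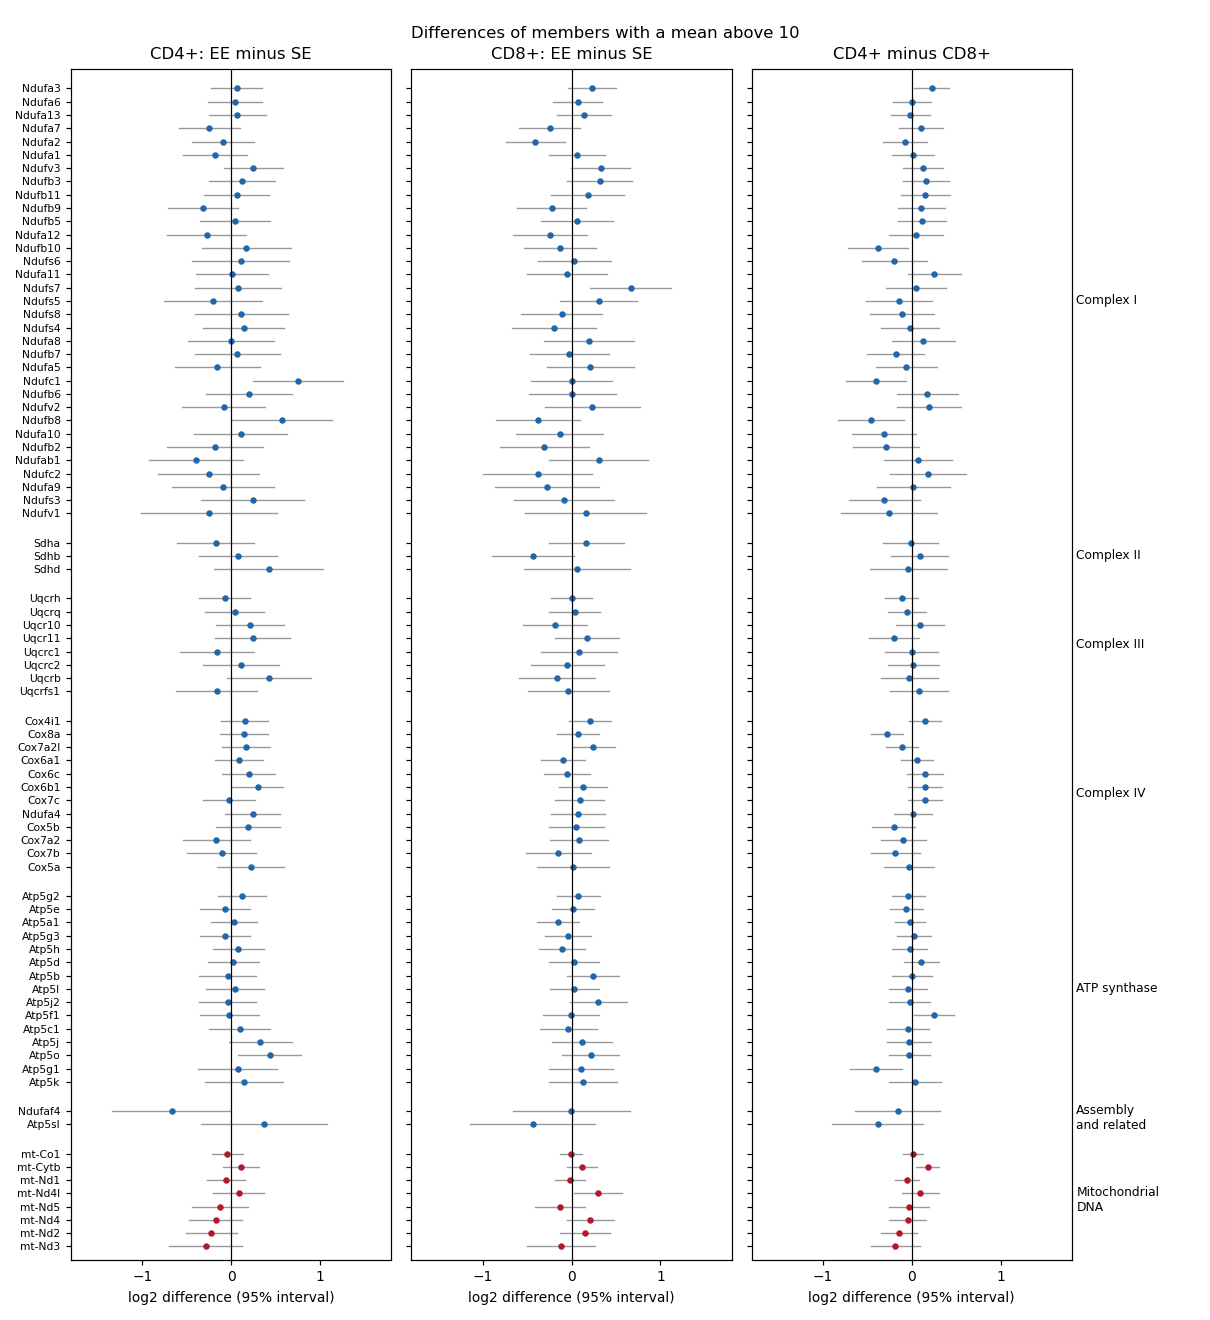
Each point is the log2 difference of 1 member with a mean above 10, leaving out 1 that is not reported here, with its 95% interval from limma (grey), in CD4+ cells between EE and SE (left), in CD8+ cells between EE and SE (middle) and between CD4+ and CD8+ cells (right), grouped by complex (blue, nuclear; red, mitochondrial DNA). Most intervals include 0, and 0 members passed the adjusted threshold in any panel.

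Among single genes, Ndufc1 (ENSMUSG00000037152, chromosome 3, 51404677 to 51408988, minus strand), a small accessory subunit in the membrane arm of complex I, had the smallest p in CD4+ cells. It read 16.4, 22.5, 29.9, 21.2, 24.7 and 24.0 in EE and 14.4, 10.1, 17.4, 17.1 and 9.01 in SE. Of the EE samples 5 lay above every SE sample, and 1 overlapped them. The log2 difference was 0.75 (standard error 0.25, adjusted p = 0.629, limma), with adjusted p-values of 0.395 to 0.999 over the alternatives. In CD8+ cells the same gene had 23.8 ± 5.84 in EE and 23.6 ± 5.98 in SE.

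Atp5o, the subunit that fixes the catalytic head to the stator of the ATP synthase, read 63.0, 55.8, 68.4, 56.8, 44.8 and 48.9 in CD4+ EE and 45.3, 44.8, 42.1, 29.4 and 46.2 in CD4+ SE. The groups overlapped in 1 EE sample, and the log2 difference was 0.43 (standard error 0.18, adjusted p = 0.780, limma). Of the 50-base stretches of Atp5o, 14.0% occur in another annotated entry, and these entries include a second one under the same symbol. In complex IV, Cox6b1, which faces the intermembrane space, had 101 ± 13.1 in CD4+ EE and 81.9 ± 11.4 in CD4+ SE, a log2 difference of 0.30 (adjusted p = 0.835). Uqcrb of complex III, with 25.4% of its stretches shared (29.0 ± 5.17 and 22.7 ± 9.97) and Sdhd (14.6 ± 4.66 and 11.1 ± 4.71) had log2 differences of 0.43 and 0.42 with adjusted p-values above 0.85. With 1 sample left out these ran from 0.28 to 0.60 and from 0.16 to 0.60.

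Of the CD4+ members, 1 gave groups that did not overlap, against 0.453% of all genes tested. This was Ndufv3 (ENSMUSG00000024038, chromosome 17, 31520115 to 31531331, plus strand), an accessory subunit of the NADH-binding module, with 50.4, 52.6, 50.2, 55.7, 57.6 and 59.9 in EE and 44.3, 44.8, 49.4, 49.4 and 40.5 in SE. Every EE sample was above every SE sample, by a narrow margin, and the log2 difference was 0.25 (adjusted p = 0.878, limma). In CD8+ cells it had 51.4 ± 7.64 in EE and 40.7 ± 5.12 in SE (log2 difference 0.33, adjusted p = 0.945), with overlap. It was named after its values were seen. In CD8+ cells 0 members gave groups without overlap, against 1.06% of all genes.

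The members that read lower in CD4+ EE also missed the threshold. Ndufb9, an accessory subunit of complex I, had 30.3 ± 4.95 in EE and 37.8 ± 4.83 in SE (log2 difference -0.32). The values were 30.7 ± 9.01 and 34.1 ± 7.23 for Sdha (-0.18), 27.6 ± 4.95 and 30.9 ± 5.76 for Uqcrc1 (-0.16), 45.9 ± 11.6 and 51.2 ± 10.7 for Cox7a2 (-0.17), and 89.7 ± 10.1 and 94.7 ± 12.2 for Atp5g3 (-0.07). For mt-Nd2 they were 77.4 ± 7.73 and 90.7 ± 10.1 (-0.22), and for mt-Cytb, the mitochondrial-encoded gene with the largest difference above 0 by its p, 338 ± 28.1 and 314 ± 37.7 (0.11). All had adjusted p-values above 0.85 in limma. With 1 sample left out, those of Sdha, Uqcrc1, Cox7a2 and Atp5g3 came as close to 0 as -0.04, -0.06, -0.07 and -0.02, and that of mt-Cytb was 0.07 without mouse SE 1 and 0.17 without mouse SE 6.

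In CD8+ cells the smallest p belonged to Ndufs1, the iron-sulfur subunit of complex I named above. It read 6.51, 2.90, 1.88, 1.94, 3.95 and 0 in EE and 12.8, 6.52, 10.6 and 3.84 in SE, from at most 15 molecules a sample, and a pair of EE samples lay within the SE range. The log2 difference was -1.42 (standard error 0.48, adjusted p = 0.680, limma). Ndufs7, a neighbouring iron-sulfur core subunit, went the other way, with 20.5, 24.2, 36.7, 33.0, 41.1 and 28.3 in EE and 24.8, 12.1, 22.1 and 17.3 in SE (log2 difference 0.66, standard error 0.23, adjusted p = 0.680). In CD4+ cells Ndufs1 had 4.83 ± 2.71 in EE and 5.88 ± 2.42 in SE, and Ndufs7 had 26.7 ± 12.0 and 24.0 ± 4.69.

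Among other CD8+ members, Cox7a2l had 131 ± 7.90 in EE and 112 ± 25.8 in SE (log2 difference 0.24, adjusted p = 0.938), where 1 SE sample at 77.9 lay below the rest and the difference was 0.08 without it. mt-Nd4l had 131 ± 25.7 in EE and, from 83.8 to 161, a mean of 109 in SE (0.30, adjusted p = 0.923, but 0.50 without mouse SE 6, 0.19 without mouse SE 2 and 0.15 without the red-cell-rich samples), Atp5j2 of the ATP synthase membrane part 72.2 ± 15.5 and 58.3 ± 12.9 (0.30), and Sdhb 20.9 ± 5.45 and 28.2 ± 6.09 (-0.44). Differences were 0.17 for Sdha, 0.17 for Uqcr11, -0.18 for Uqcr10, -0.15 for Cox7b, -0.15 for Atp5a1 and -0.13 for mt-Nd5, and 0 of these passed the adjusted threshold. Without mouse SE 6 the difference was 0.00 for Uqcr10 and 0.07 for mt-Nd5, without mouse SE 3 it was 0.01 for Sdha and -0.08 for Atp5a1, without mouse EE 6, whose sample was rich in red-cell RNA, it was -0.01 for Cox7b, without mouse SE 2 it was 0.18 for Atp5j2, and without mouse EE 4 it was 0.09 for Uqcr11.

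The environments were also compared between populations, as the EE to SE difference in CD4+ cells minus that in CD8+ cells. For 0 of 93 members tested was the adjusted p under 0.05, where 0% of all 7938 genes reached it, and 2 members had an unadjusted p under 0.05, against 4.95% of all genes. edgeR and DESeq2 also called 0, with 2 members each at that unadjusted level, against 367 (edgeR) and 299 (DESeq2) of all genes. A difference above 0 was found for 47 members, against 50.5% of all genes. The smallest p was that of Ndufb8, an accessory subunit of the membrane arm of complex I. It had 20.3 ± 5.62 in CD4+ EE and 14.2 ± 7.40 in CD4+ SE, but 20.0 ± 5.79 in CD8+ EE and 25.7 ± 3.65 in CD8+ SE, an interaction of 0.95 on the log2 scale (standard error 0.38, adjusted p = 0.975, limma). Ndufc1 was the other, at 0.74 (adjusted p = 0.985). The members with the smallest p of each complex and direction had interactions of -0.70 for Ndufab1, 0.51 for Sdhb, -0.35 for Sdha, 0.59 for Uqcrb, -0.25 for Uqcrc1, 0.25 for Cox6c, -0.25 for Cox7a2, -0.34 for Atp5j2, 0.18 for Atp5a1, -0.37 for mt-Nd2 and 0.00 for mt-Nd5. These intervals were wide, and 26 of 93 lay within 1.5-fold, against 4.48% of all genes. With a mean above 10 the shares were 31.7% of members and 13.1% of all genes.

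CD4+ and CD8+ cells were compared over all 21 samples. Here 0 of 93 members passed the adjusted threshold, where 4.40% of all 7938 genes did. DESeq2 called 0 members as well, where it called 324 of all genes, and edgeR called 1, where it called 369. Each had 8 members at an unadjusted p under 0.05, against 1060 (DESeq2) and 1155 (edgeR) of all genes. In limma that level was reached by 9 members, against 14.8% of all genes, and a difference above 0, meaning higher in CD4+ cells, by 42 members, against 48.9%. The 95% interval lay within 1.5-fold for 71 of the 82 members with a mean above 10 and within 2-fold for 82, and for 12 of 12 complex IV genes, 8 of 8 complex III genes and 8 of 8 mitochondrial-encoded genes tested within 1.5-fold. The members were abundant, which bears on these widths: over all genes with a mean above 10 the shares were 58.9% within 1.5-fold and 93.6% within 2-fold, against 86.6% and 100% of these members.

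Cox8a (ENSMUSG00000035885, chromosome 19, 7215153 to 7217616, minus strand), a small subunit in the membrane part of complex IV, came closest to the threshold. It shares 0% of its 50-base stretches with another annotated gene. It read 108, 113, 136, 138, 98.7 and 98.7 in CD4+ EE, 99.9, 107, 123, 89.3 and 99.1 in CD4+ SE, 139, 174, 147, 137, 123 and 104 in CD8+ EE and 116, 132, 117 and 152 in CD8+ SE. CD8+ samples were mostly the higher ones, with overlap between 104 and 138. The log2 difference, CD4+ minus CD8+, was -0.28 (standard error 0.09, adjusted p = 0.0661, limma). The call was gained, with the difference at -0.34 and an adjusted p of 0.0254, without the red-cell-rich CD8+ samples, and also with only genes of a mean above 10 (adjusted p = 0.0443) and in edgeR (adjusted p = 0.0495), while over the alternatives the adjusted p ran from 0.0254 to 0.204.

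Atp5g1, the lowest subunit c gene, had 18.2, 29.9 and 51.6 (lowest, median and highest) in 11 CD4+ samples and 31.1, 37.0 and 49.8 in 10 CD8+ samples. The highest CD4+ value, from mouse EE 1, lay above all CD8+ samples, and 6 of the CD4+ samples lay below 31.1. The log2 difference was -0.40 (standard error 0.15, adjusted p = 0.117, limma), and -0.48 with an adjusted p of 0.0328 without that sample. Atp5g2 had 113 ± 14.7 and 116 ± 16.5 and Atp5g3 91.9 ± 10.8 and 90.4 ± 10.5 in CD4+ and CD8+ samples, so that Atp5g1 made up 12.8% ± 2.83 of the 3 genes in CD4+ and 16.1% ± 2.03 in CD8+ cells.

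mt-Cytb was higher in CD4+ cells, where it ran from 278 to 372 (median 329.6), than in CD8+ cells, at 226 to 337 (median 291). The ranges overlapped widely, and the log2 difference was 0.18 (standard error 0.07, adjusted p = 0.139, limma). It was 0.20 with an adjusted p of 0.0423 when samples were scaled to the same total, 0.23 with an adjusted p of 0.0354 without the CD8+ sample of mouse SE 6, and 0.04 with an adjusted p of 0.922 when the total molecules of the sample, which were lower in CD4+ samples, entered the fit. mt-Nd2 went the other way by 0.15 and mt-Co1 stood at 622 ± 59.7 and 617 ± 51.8.

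**Figure D4:**
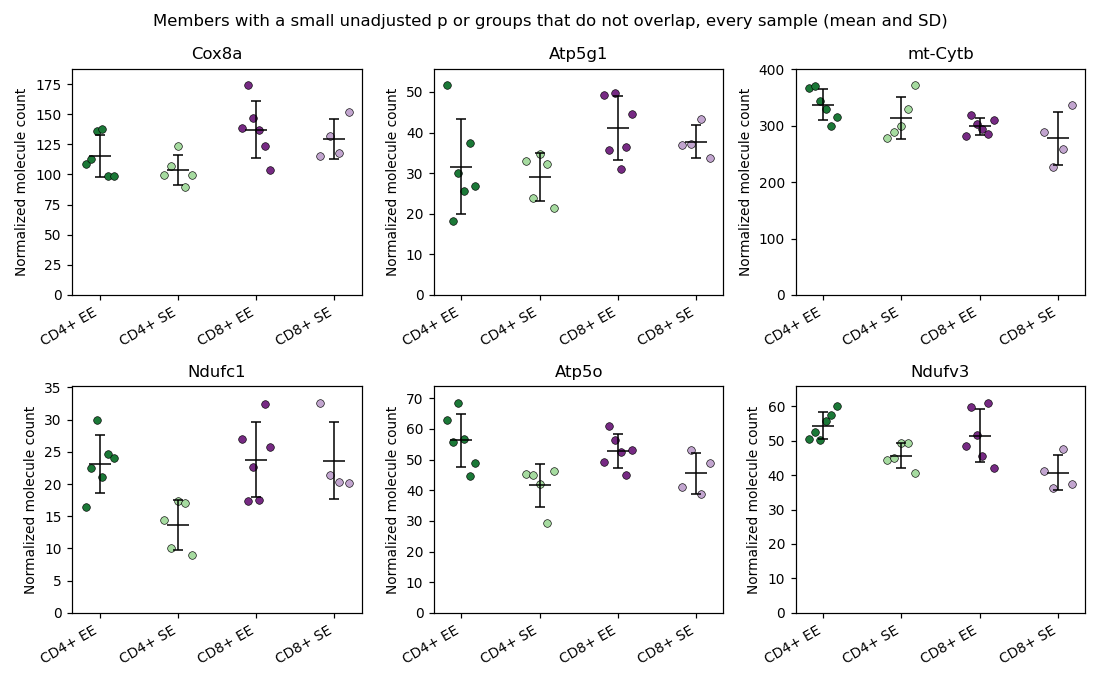
Each panel shows the normalized molecule count of 1 gene in every sample (points) with the mean and SD of each group (black). Cox8a and Atp5g1 lie higher in CD8+ cells and mt-Cytb in CD4+ cells with overlap, and Ndufv3 is the gene whose CD4+ EE (50.2 to 59.9) and SE samples (40.5 to 49.4) do not overlap.

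Of the other members, Ndufb8 had 17.5 ± 6.91 in CD4+ and 22.3 ± 5.62 in CD8+ samples (log2 difference -0.46, adjusted p = 0.194), Ndufa3 99.0 ± 15.1 and 86.0 ± 13.3 (0.22, adjusted p = 0.263, but 0.11 without mouse SE 6), and Atp5f1, subunit b of the ATP synthase stator, 63.3 ± 11.5 and 52.6 ± 6.49 (0.25, adjusted p = 0.263). Cox4i1 had 149 ± 24.3 and 135 ± 21.3 (0.15), and differences were 0.16 for Sdhc, -0.04 for Sdhd, -0.20 for Uqcr11 and 0.09 for Uqcr10, of which that of Sdhd changed sign in 4 of the 21 fits with 1 sample left out. The assembly factor Ndufaf6, with 1.02 ± 1.27 and 3.16 ± 1.71 from at most 6 molecules a sample, had a log2 difference of -1.12 (adjusted p = 0.0927) and was named after its values were seen.

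The pathway beyond these members was followed in 4 lists: assembly factors, electron carriers and exchangers, the citric acid cycle, and genes that express mitochondrial DNA or drive mitochondrial biogenesis. Between EE and SE, limma called 0 of their genes, out of 30, 19, 17 and 13 tested in CD4+ cells and 31, 19, 17 and 15 in CD8+ cells in that order. Between CD4+ and CD8+ cells it called 0 of 31 assembly factors, 0 of 17 citric acid cycle genes, 1 of 19 electron carriers and exchangers and 1 of 15 genes of the last list, against the 4.40% of all genes given above. The exchanger was Slc25a4, which swaps ADP for ATP across the inner membrane, the step after the ATP synthase. It ran from 13.7 to 37.5 (median 29.3) in CD4+ and from 36.0 to 72.4 (median 56.3) in CD8+ cells, with a log2 difference of -0.97 (standard error 0.15, adjusted p = 2.12e-06), and all 10 alternatives and all 21 fits with 1 sample left out called it. The other was Polg, the polymerase that copies mitochondrial DNA, with 18.6 ± 5.37 in CD4+ and 11.4 ± 5.89 in CD8+ cells (log2 difference 0.70, standard error 0.21, adjusted p = 0.0387). Its adjusted p ran from 0.00988 to 0.145 over the alternatives, and 10 of 21 fits with 1 sample left out called it.

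Among themselves the members varied less than most genes of the table relative to their means, as their abundance allows. The coefficient of variation within groups had a median of 20.8% over the 82 members with a mean above 10 and 27.7% over all genes above that limit, whose median level was lower (19.3 against 44.2). Relative to the variance of random counting, however, the median was 1.97 for these members and 1.68 for all genes. It was 3.96 for the 8 mitochondrial-encoded genes, led by mt-Nd5 at 6.74 and mt-Nd4l at 6.23, and 1.82 for 72 nuclear subunits, a ratio that grows with the level of a gene. The median coefficient of variation had the opposite order, with 15.4% for the mitochondrial-encoded genes and 20.9% for the nuclear subunits. The most even genes were Cox7c, with a coefficient of variation of 7.14%, and Atp5a1, with 7.86%.

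In the CD4+ and CD8+ samples of mouse SE 6 the mitochondrial-encoded members took 1.09% and 1.14% of all molecules, the highest values of the 21 samples, where all other samples lay between 0.818% and 1.03%. The CD8+ sample also had 990.0 molecules of the mitochondrial ribosomal RNA mt-Rnr1, against 461 to 620.5 in the other CD8+ samples, whereas its CD4+ sample, at 770.3, lay within the 479 to 865 of the other CD4+ samples. The title of the CD8+ sample ends in the number 58, where those of all other samples end in 7 to 30. The labels also list this number as the number of cells, with no further account of it, and its part in the result was not tested. In CD4+ cells the direction of the environment difference in the sum hung on this mouse, and in CD8+ cells its size did. The mitochondrial-encoded sum was lower by 41.5 in CD4+ EE than in SE with it and higher by 27.0 without it, and in CD8+ cells EE was higher by 44.4 with it and by 164 without it, but was lower by 3.26 without the CD8+ sample of mouse SE 2. Without this mouse limma still called 0 members in all 4 comparisons.

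**Figure D5:**
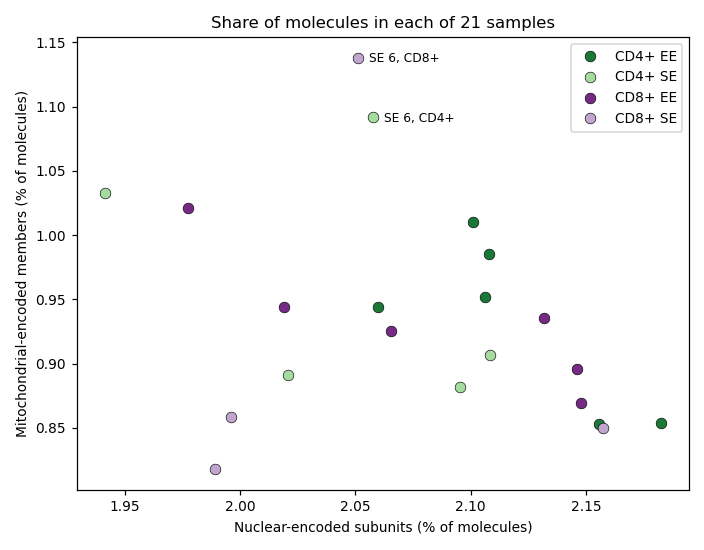
Each point is 1 of 21 samples, placed by the percentage of its molecules from the 75 nuclear-encoded subunits (horizontal axis) and from the 9 mitochondrial-encoded genes (vertical axis), coloured by group; neither axis starts at 0. The CD4+ and CD8+ samples of mouse SE 6 stand highest, at 1.09% and 1.14%, and the groups overlap on both axes.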

How the data were processed

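RNA of sorted spleen CD4+ and CD8+ T cells was sequenced on an Ion Proton instrument with unique molecular identifiers. The authors trimmed reads (cutadapt), aligned them to mm10 with STAR 2.4.0a, counted tagged molecules on Ensembl genes (Drop-seq tools), excluded samples by purity, filtered low genes and normalized with DESeq2. The deposited signal is therefore a molecule count divided by a size factor. Taking the smallest positive value of a sample as 1 molecule, 100% of positive values were whole within 0.01 molecules. Precision follows the totals of 145546 to 221454 molecules, and all errors other than SDs between mice come from the fits.

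Groups were taken from the labels. Genes with a mean above 2 were compared with limma 3.58.1 (trend) in R 4.3.3 on log2(value + 1), with Benjamini-Hochberg adjustment over all genes and a threshold of 0.05: EE against SE within each population, and, over all 21 samples with 4 group means, the populations and the interaction. The count tests of edgeR 4.0.16 and DESeq2 1.42.0 on recovered molecules were alternatives, as were a pseudocount of 0.5, no filter, a mean above 10, equal totals, total molecules as covariate, 1 fit of all samples, a replicate block, and each sample left out. Leaving out the samples rich in red-cell RNA, or mouse SE 6, was chosen after seeing the data. The fits were tested on simulated data. Python 3.11.15 with NumPy 2.4.6, pandas 2.3.3 and Matplotlib 3.10.9 served for the rest.

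For the populations and the interaction, the replicate block was the mouse, which 9 CD4+ and CD8+ pairs share. The deviations of these pairs from the group means correlated at -0.01 to 0.04. Within a population it was the number, although equal numbers in EE and SE are different mice.

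Members and lists were chosen with earlier results of these data known. Named genes are those past the threshold, per complex and comparison the member with the smallest p in each direction, the 2 highest members per complex, all mitochondrial-encoded members and a list of catalytic and isoform genes, of which 1 enters the counts but is not reported here. Positions are from GENCODE M21 (GRCm38), promoters from RefSeq (GRCm38.p6). Shared 50-base stretches were counted over the annotated transcripts.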

Additional observations from a re-analysis of the deposited data

Results flagged for a closer look

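In the 4 groups, of 4 to 6 samples each, 196 sets of values were searched for a sample far from the others, and 8 were found, where chance gives about 1 in 20, or 9.8. In the CD8+ SE sample of mouse 6 the mitochondrial-encoded members summed to 1958, against 1455 to 1495 in the other 3 samples of the group, and took 1.14% of the molecules, against 0.818% to 0.858%. The same sample had 66.3 of Uqcr10, a small subunit of complex III, against 38.9 to 40.3. Ndufc1 stood at 32.5 in the CD8+ SE sample of mouse 1, against 20.2 to 21.4. In CD4+ SE, Cox6b1 was at 61.9 in mouse 6, against 84.5 to 89.7, and Atp5o at 29.4 in mouse 5, against 42.1 to 46.2. In EE, mt-Nd2 was at 92.3 in the CD4+ sample of mouse 2, against 71.3 to 79.1, and Uqcrh at 148.5 in the CD8+ sample of mouse 3, against 110.2 to 123. Both low CD4+ SE values lie in genes named above for their difference between EE and SE, and without the sample in question the log2 difference was 0.20 for Cox6b1 and 0.32 for Atp5o. The difference of Uqcr10 between CD8+ EE and SE was 0.00 without its high sample.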

How the results depend on the processing

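The number of members called stayed at 0 between EE and SE in CD4+ and in CD8+ cells, and for the interaction, under every alternative run, and no result changed sign past a threshold. Between CD4+ and CD8+ cells it was 1 with a mean above 10 (Cox8a), with equal totals (mt-Cytb), in edgeR (Cox8a) and without the red-cell-rich CD8+ samples (Cox8a), and 0 to 1 with 1 sample left out, where 6 of 21 fits called a member: Cox8a without CD4+ EE 3, CD4+ EE 4, CD4+ SE 4 or CD8+ EE 6, Atp5g1 without CD4+ EE 1 and mt-Cytb without CD8+ SE 6. With a replicate block 0 members were called in all 4 comparisons. Between CD4+ and CD8+ cells and for the interaction the block was the mouse, and over all genes it gave 358 and 0 calls. Within a population it joined EE and SE samples of equal number, which are different mice and whose deviations correlated at -0.01 to 0.03, and over all genes it moved the calls from 1 to 0 in CD4+ and from 0 to 2 in CD8+ cells. Over all genes the count between CD4+ and CD8+ cells was 349, with 185 higher and 164 lower in CD4+ cells, 216 with a mean above 10 (99 higher, 117 lower) and 198 with total molecules as covariate (91 higher, 107 lower). Between EE and SE it was 0 to 3 in either population. Depth limits the low members: mt-Nd6, at 0 to 4 molecules, was below the limit for testing in the main fits. Between EE and SE the intervals of 0 of 8 assembly factors in CD4+ cells and 2 of 8 in CD8+ cells lay within 2-fold.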

Other observations

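In the 9 mice with both populations, the share of molecules from mitochondrial-encoded members in CD4+ and in CD8+ cells had a Pearson r of 0.76 (exact permutation p = 0.0171, 0.0342 after Benjamini-Hochberg adjustment over 2 relations) and a Spearman rho of 0.58 (exact permutation p = 0.108). Without the 2 mice farthest from the median r was 0.55 over 7 mice, and without mouse SE 6 alone 0.44 over 8, so that the relation rests on that mouse. For the nuclear-encoded subunits r was 0.16 (exact permutation p = 0.668) and rho 0.20 (exact permutation p = 0.613).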
